A study of Mus musculus with 2 samples.

Results

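Bone morphogenetic proteins (BMPs) are secreted ligands of the TGF-beta superfamily, and transcripts of 5 of them, Bmp2, Bmp3, Bmp4, Bmp5 and Bmp7, were followed across the stromal cell types of the mouse gut. The 5 genes were taken by name, with earlier results of these data known. All 5 were among the 16098 genes listed in both of the deposited raw tables, which listed 16381 colon genes and 18262 small intestinal genes. For each ligand, UMIs (each marking 1 captured RNA molecule) were summed over the cells of a type and given as CPM, the ligand's UMIs scaled to a fixed total of UMIs of that type. The share of cells with at least 1 UMI and the detection of several ligands in the same cell were counted as well.

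The cells came from healthy, untreated mice, 1 library of colon and 1 of small intestine, with no genetic change named in the labels. Stromal cells were obtained by stripping the epithelium, digesting the tissue (60 minutes for the colon, 45 minutes for the small intestine) and sorting live cells negative for EpCAM and CD45, and about 16000 cells were loaded per library. The labels do not give the number, age, sex or strain of the animals. Female and male cells were mixed in the colon library: Xist alone was found in 2700 of its cells and Y-linked transcripts alone in 1751. With 1 library per tissue no difference could be tested, digestion time and tissue cannot be told apart, and every interval below is a 95% interval that covers counting error only.

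BMP ligands bind pairs of type I and type II serine/threonine kinase receptors, which phosphorylate SMAD1, SMAD5 and SMAD9 and induce target genes such as those of the Id family. In the gut wall, ligands made by the mesenchyme are known to act on the epithelium, where BMP signalling favours differentiation away from the crypt base, and secreted antagonists such as gremlin 1 limit it near the crypt base. Bmp2 and Bmp4 are close relatives, Bmp5 and Bmp7 belong to another branch of the family, and Bmp3 is known mainly as an inhibitory member.

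The colon library held 6018 cells with a median of 6598 UMIs, and the small intestine library 9359 cells with a median of 5943 UMIs. The authors' annotation gave 6 types that reached 50 cells in both libraries. The fibroblast types were CD81- FBs (3631 colon and 2823 small intestinal cells), Trophocytes (875 and 1913) and PDGFRa-high SEMFs (1105 and 1109), and the others were LECs (217 and 2498), BECs (53 and 524) and SMCs (125 and 468). The summed level of 10 SEMF markers was 5380 CPM in SEMFs of the colon and 7881 CPM in those of the small intestine, against at most 1097 and 1223 CPM in any other type. Sox6 (3519 CPM) and Pdgfra (2778 CPM) made up most of the small intestinal sum. Not every member was highest in SEMFs. Dll1 was highest in BECs in both libraries (30.6 against 1.53 CPM in SEMFs of the small intestine). Nrg1 was highest in SMCs of the small intestine (108 against 66.4 CPM in SEMFs). Lymphatic markers marked the LECs (23263 and 20691 CPM), blood endothelial markers the BECs (7138 and 7873 CPM) and smooth muscle markers the SMCs (24710 and 16339 CPM). The SMCs also carried fibroblast transcripts: the 7 markers of CD81- FBs summed to 5414 CPM in colon SMCs and 20072 CPM in small intestinal SMCs, against 27860 CPM in the CD81- FBs of the small intestine. The marker lists of the other fibroblast labels were less specific. The CD81- FB list was higher in Trophocytes than in CD81- FBs (23678 against 19469 CPM in the colon, 36538 against 27860 CPM in the small intestine). The trophocyte list was higher in Trophocytes than in the other fibroblasts, at 2589.9 (colon) and 3464 CPM (small intestine), but colon BECs had 3182 CPM of it. The 2 libraries shared 21 cell barcodes. Because the authors named the types from these same cells, differences between types are descriptions.

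On the mouse assembly GRCm38.p6 (RefSeq genes), Bmp2 lies at chr2:133552159-133562896 on the plus strand and Bmp7 at chr2:172868012-172940321 on the minus strand. Bmp3 lies at chr5:98854415-98884053 on the plus strand. Bmp4, at chr14:46383525-46390669 on the minus strand, overlaps the GENCODE genes Gm15217 and Gm15222 on the opposite strand. Bmp5, at chr9:75775365-75900316 on the plus strand, overlaps Gm47723 on its own strand and Gm26903 on the other. How reads in such overlaps were assigned is not given in the sources used here.

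Promoter windows were held for only 2 of the 5 ligands, Bmp4 and Bmp5, and both are shown. These ligands had contrasting patterns over the cell types: a broad one for Bmp4 and one weighted to SEMFs for Bmp5. The sequences are those of RefSeq on GRCm38.p6, the 250 bases before the start of Bmp4 (chr14:46390670-46390919, minus strand) and 249 bases before the start of Bmp5 (chr9:75775115-75775363, plus strand), with matches to the searched motifs in capitals.
Bmp4: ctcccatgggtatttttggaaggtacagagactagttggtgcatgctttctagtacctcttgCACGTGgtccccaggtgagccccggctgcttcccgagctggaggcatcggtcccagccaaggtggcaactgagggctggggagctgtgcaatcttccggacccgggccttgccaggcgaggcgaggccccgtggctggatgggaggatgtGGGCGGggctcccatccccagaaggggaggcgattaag
Bmp5: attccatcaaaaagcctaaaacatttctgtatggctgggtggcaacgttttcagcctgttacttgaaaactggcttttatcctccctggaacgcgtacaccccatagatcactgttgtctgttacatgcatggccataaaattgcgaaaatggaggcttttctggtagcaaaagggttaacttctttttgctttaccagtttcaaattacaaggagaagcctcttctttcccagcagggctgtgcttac

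The Bmp4 window had a GC content of 63.2% with 11 CpG dinucleotides and the Bmp5 window 43.0% with 4, against medians of 52.4% and 6 over all promoter windows. Searched on both strands, the Bmp4 window held 1 GC box (GGGCGG, found in 32.7% of 32851 promoters) and 1 palindromic E-box (CACGTG, in 6.02%), and the Bmp5 window held neither. Neither window held the TATA box TATAAA (12.4% of promoters), the forkhead core TGTTTAC (3.17%) or the GLI site GACCACCCA (0.225%). These are matches of letters in a short window, and no binding was measured.

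SEMFs had the highest CPM of the 6 types for all 5 ligands in the colon and for 4 of the 5, all but Bmp2, in the small intestine. Among all genes with at least 100 UMIs, SEMFs were the highest type for 18.5% in the colon and 32.9% in the small intestine. SEMFs exceeded the next type at least 2-fold for Bmp2, Bmp3, Bmp5 and Bmp7 in the colon, where 1.97% of genes did so, and for Bmp3, Bmp5 and Bmp7 in the small intestine, where 2.83% did. CD81- FBs were highest for none of the ligands in the colon, where they led for 9.63% of genes, and for Bmp2 in the small intestine, where they led for 7.65%. Bmp4 was the exception in both, with SEMFs only 1.17-fold (colon) and 1.19-fold (small intestine) above CD81- FBs. Because the ligands were chosen with earlier results of these data known, the shares of all genes are given for description only. Bmp6, a relative of Bmp5 outside the set, was highest in CD81- FBs in the colon (219.7 against 155 CPM in SEMFs). In the small intestine it was highest in SEMFs (246 against 194 CPM in CD81- FBs). The plot of CPM by type sets out all 60 values of the set.

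**Figure D1:**
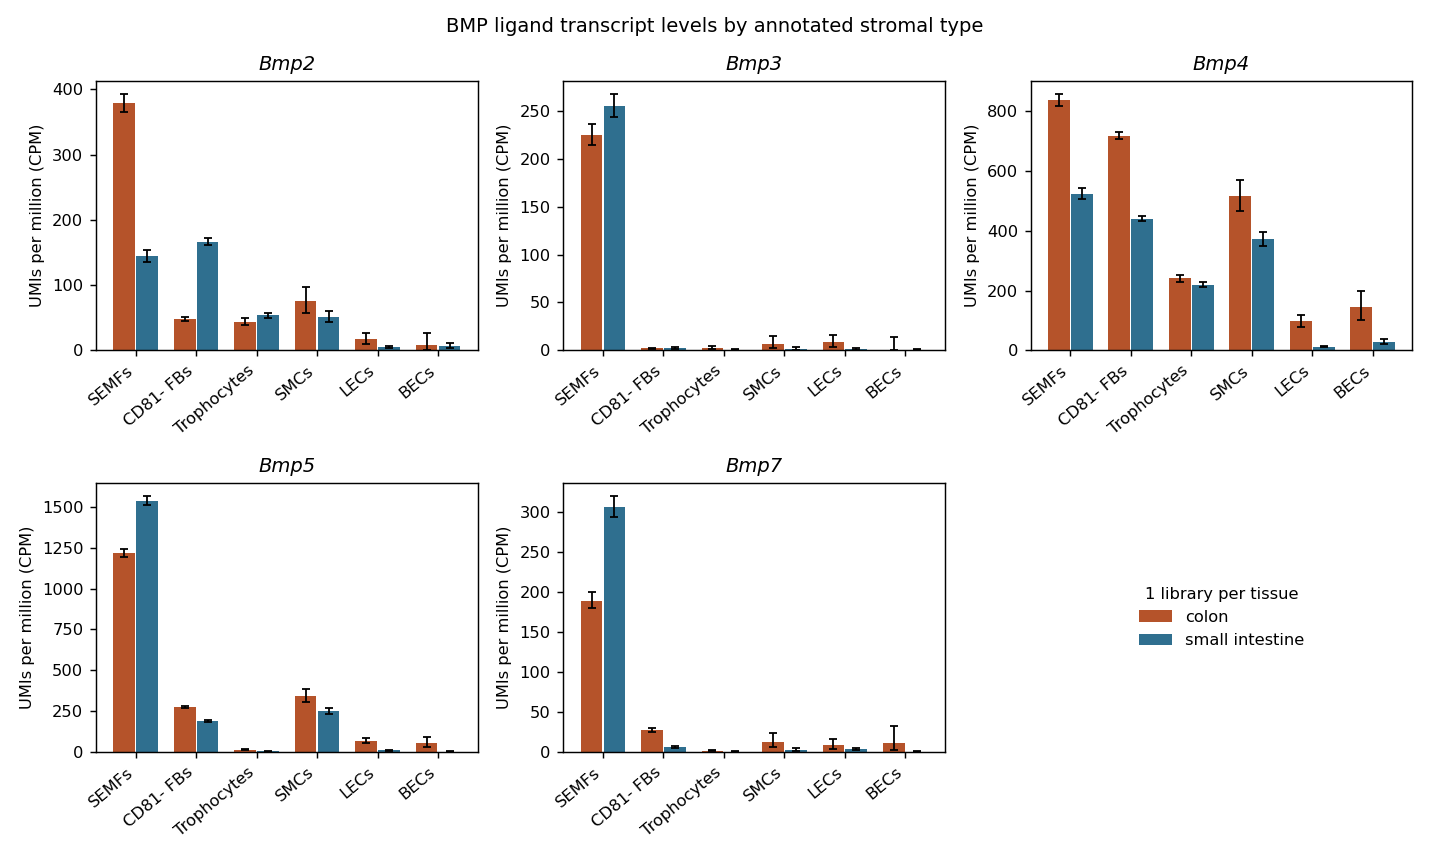
Transcript level of each BMP ligand (CPM, relative to all UMIs of the type; linear axis from 0, its range differing between panels) in 6 annotated stromal types of colon and small intestine, 1 library per tissue; bars are summed CPM and whiskers exact Poisson 95% intervals. Bmp3 was at 8.45 CPM or less outside SEMFs, Bmp7 was lower in colon CD81- FBs (27.3 CPM) than in SEMFs (189 CPM), Bmp4 was spread over SEMFs, CD81- FBs and SMCs, and Bmp2 changed its highest type from SEMFs (379 CPM, colon) to CD81- FBs (167 CPM, small intestine).

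Bmp4, a ligand of the BMP2/4 branch, was the most widely detected of the set. Its level was 838 CPM (817 to 859) in SEMFs of the colon and 525 CPM (508 to 543) in those of the small intestine, with at least 1 UMI in 97.3% and 88.0% of the cells. CD81- FBs had 719 CPM (95.7% of cells) in the first tissue and 441 CPM (88.6%) in the second. SMCs followed with 517 and 372 CPM, then Trophocytes with 241 and 219.7 CPM. This order, SEMFs, CD81- FBs, SMCs, Trophocytes, BECs and LECs, was the same in both libraries, and the interval of each step excluded equality. The last step was marginal in the colon, at a log2 ratio of 0.58 (0.010 to 1.13). It rested on 39 UMIs in 6 of 53 BECs. A Bmp4 UMI was found there in 11.3% of BECs and 12.4% of LECs. CD81- FBs were the more numerous type and contributed 68.1% of all Bmp4 UMIs of the colon library and 52.6% of those of the small intestine, against 23.9% and 20.3% from SEMFs.

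Bmp5, of the BMP5/6/7/8 branch, was highest in SEMFs: colon SEMFs had 1215 CPM (1190 to 1241) and small intestinal SEMFs 1539 CPM (1509 to 1569). Nearly every SEMF had a Bmp5 UMI, 98.8% in the colon and 98.4% in the small intestine, and single cells reached 42 and 58 UMIs. SMCs came next at 343 and 249 CPM, so that SEMFs were 3.54-fold and 6.18-fold above them. In CD81- FBs the level was 276 CPM (72.2% of cells) for the colon library and 188 CPM (55.3%) for the other. Trophocytes, the CD81-high fibroblasts that carry gremlin 1, had only 14.3 and 3.86 CPM, and SEMFs stood 85.0-fold and 399-fold above them. For Bmp4 the same SEMF-to-Trophocyte ratios were 3.48 and 2.39.

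Bmp7, from the same branch as Bmp5, was measured at 189 CPM (180 to 199) in SEMFs of the colon and 307 CPM (293 to 321) in those of the small intestine, in 64.8% and 77.4% of the cells. Colon CD81- FBs had 27.3 CPM (14.1% of cells) and small intestinal CD81- FBs 5.90 CPM (3.51%). The SEMF excess over CD81- FBs was thus 6.93-fold in the colon and 52.0-fold in the small intestine. SEMFs gave 66.4% of the Bmp7 UMIs of the colon library and CD81- FBs 31.8%, whereas in the small intestine the shares were 92.0% and 5.47%.

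Bmp3, the inhibitory family member, had the narrowest pattern. Colon SEMFs held 225 CPM (214 to 236) and small intestinal SEMFs 255 CPM (243 to 268), in 57.9% and 70.2% of cells, and they gave 95.1% and 95.9% of all Bmp3 UMIs. CD81- FBs had 2.15 and 2.33 CPM, so the excess of SEMFs over them was 105-fold and 110-fold. No Bmp3 UMI was found in 53 colon BECs, which at 3 counts over the cells allows up to 5.66% of cells with a UMI, or in 524 small intestinal BECs, which allows up to 0.573%. These limits concern cells with a UMI, not cells that express the gene. Below SEMFs, the colon types did not differ from their neighbours in the order beyond counting error, from LECs at 8.45 CPM down to CD81- FBs. The LEC value rested on 9 UMIs in 2 cells.

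Bmp2, the close relative of Bmp4, was the ligand whose highest type differed between the tissues. Colon SEMFs had 379 CPM (365 to 393) with a UMI in 70.7% of the cells, and colon CD81- FBs 48.0 CPM (45.3 to 50.9) with a UMI in 23.7%. Small intestinal SEMFs had 144 CPM (135 to 153) with a UMI in 45.6% of the cells, and CD81- FBs there had 167 CPM (161 to 173) with a UMI in 53.7%. SEMFs were therefore 7.89-fold above CD81- FBs in the colon and 0.863-fold of them in the small intestine. SEMFs gave 64.5% of the Bmp2 UMIs in the colon but 17.7% in the small intestine, where CD81- FBs gave 63.2%. Trophocytes were at 44.1 CPM (colon) and 53.5 CPM (small intestine), within counting error of CD81- FBs in the colon and of SMCs (51.0 CPM) in the small intestine.

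The UMIs of Bmp2 lay in many SEMFs, but fewer SEMFs held 50% of them than for any other ligand of the set. A positive SEMF held 3.61 Bmp2 UMIs on average in the colon and 1.86 in the small intestine, with at most 59 and 13 in a cell, and the 152 and 129 richest cells held 50% of the UMIs. When each cell was thinned to 2000 UMIs, 40.5% of colon SEMFs and 9.09% of colon CD81- FBs were positive, against 19.9% and 26.0% in the small intestine. Thinning likewise left Bmp5 in 87.8% and 90.1% of SEMFs, Bmp4 in 76.2% and 61.7%, Bmp7 in 30.3% and 44.3%, and Bmp3 in 31.6% and 39.7%. Median depths per cell were 6345 UMIs for SEMFs and 6697 for CD81- FBs in the colon, and 5510 and 6977 in the small intestine. LECs, at medians of 4545 and 4117 UMIs, had a Bmp2 UMI in 2.76% and 1.40% of cells, a Bmp4 UMI in 12.4% and 3.04%, and a Bmp5 UMI in 12.9% and 1.76%.

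The tissues were next compared within each type as the log2 ratio of CPM, colon over small intestine. A ratio was called when it was at least 2-fold and its interval excluded 0. Over the 6 types the ligands had 13 called ratios, 12 higher in the colon and 1 higher in the small intestine. By type, 3.1% (BECs) to 6.46% (CD81- FBs) of all genes were called higher in the colon. Higher in the small intestine were 8.24% (Trophocytes) to 18.7% (BECs). These background genes needed 100 UMIs over both libraries. Bmp2 and Bmp3 in LECs, Bmp3 and Bmp7 in Trophocytes, Bmp5 in BECs and Bmp7 in SMCs were called on fewer. The median gene itself was shifted towards the small intestine, by -0.11 in Trophocytes to -0.33 in SEMFs. Relative to that median gene there were 16 called ratios, 15 of them higher in the colon.

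**Figure D2:**
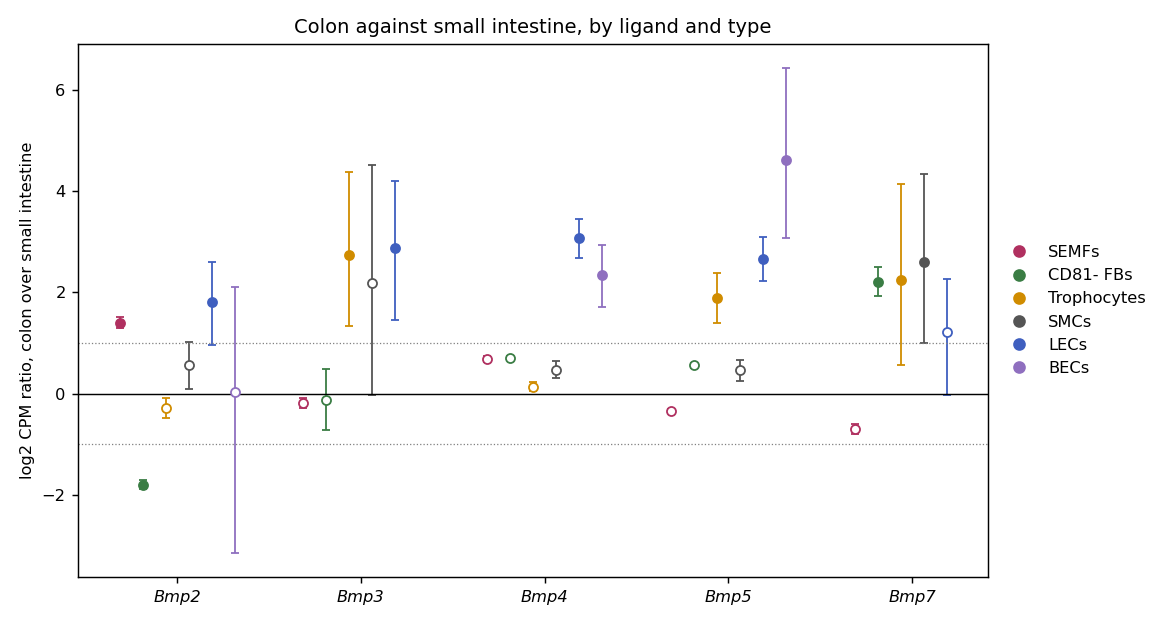
Log2 ratio of CPM, colon over small intestine, for each BMP ligand (x axis) in 6 stromal types (colours), with exact 95% counting intervals; filled points are called and dotted lines mark a 2-fold difference. Values resting on no UMI in a library are left out. Bmp2 lies at 1.40 in SEMFs and at -1.80 in CD81- FBs, and the LEC points of Bmp2 to Bmp5 and the BEC points of Bmp4 and Bmp5 lie high.

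In SEMFs 1 of the 5 ligands was called, Bmp2, at a log2 ratio of 1.40 (1.29 to 1.50; 1.73 relative to the median gene), where 5.36% of genes were called higher in the colon. Bmp4 was at 0.67 (0.61 to 0.73). Bmp7 was lower in the colon by a log2 ratio of -0.70 (-0.80 to -0.60), Bmp5 at -0.34 and Bmp3 at -0.18. Relative to the median gene Bmp4 came to 1.01, Bmp7 to -0.36, Bmp5 to -0.0076 and Bmp3 to 0.15. Within the colon library, SEMFs with Y-linked transcripts and SEMFs with Xist had levels within counting error of each other for Bmp2 (402 and 381 CPM), Bmp5 (1261 and 1220.0 CPM) and Bmp7 (199 and 180.5 CPM). Bmp3, at 248 and 211 CPM (log2 ratio 0.24, 0.078 to 0.40), and Bmp4, at 869 and 806 CPM (0.11, 0.027 to 0.19), were higher in the former.

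CD81- FBs had 2 called ligands in opposite directions. Bmp2 was lower in the colon at -1.80 (-1.89 to -1.70), where 10.4% of genes were called higher in the small intestine, and Bmp7 was higher in the colon at 2.21 (1.93 to 2.50), where 6.46% of genes were called so. Bmp4 stood at 0.71, Bmp5 at 0.56 and Bmp3 at -0.12, the last on 53 and 47 UMIs. In Trophocytes, Bmp3 (2.74), Bmp5 (1.89) and Bmp7 (2.24) were called higher in the colon, where 4.23% of genes were, and no ligand was called higher in the small intestine, where 8.24% of genes were. Only Bmp5, at 14.3 against 3.86 CPM, rested there on more than 100 UMIs. Bmp3 had 17 and 6 UMIs and Bmp7 10 and 5. Bmp2 and Bmp4, the ligands with substantial levels in Trophocytes, were at -0.28 and 0.13.

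SMCs had 1 called ligand, Bmp7 at 2.60 on 10 and 6 UMIs, where 3.37% of genes were called higher in the colon. Bmp2 (0.56), Bmp4 (0.47) and Bmp5 (0.46) were higher in the colon by less than 2-fold. Without the highest doublet scores, Bmp2 turned to -0.29, Bmp5 fell to 0.073, Bmp7 was at 0.57 and Bmp4 at 0.40. Ligand-positive and ligand-negative SMCs were set side by side because SMCs carried fibroblast transcripts. Positive meant at least 1 UMI without thinning, so the depth of the cells was not matched. In the colon, 89 Bmp5-positive SMCs had 1463 CPM of the fibroblast transcript Adamdec1 against 543 CPM in 36 negative ones (log2 ratio 1.43), the SEMF markers Sox6 at 143 against 16.1 CPM (3.15, 1.55 to 5.46) and Pdgfra at 76.7 against 5.38 CPM (3.83, 1.28 to 9.17), and Acta2, smooth muscle actin, at 9206 against 10963 CPM. The 30 Bmp2-positive colon SMCs likewise had Pdgfra at 161 against 13.2 CPM (log2 ratio 3.61) and Sox6 at 277 against 37.7 CPM (2.87). Among small intestinal SMCs, the 288 Bmp5-positive cells had 9957 CPM of Adamdec1 and the 180 negative cells 7764 (log2 ratio 0.36). Not all splits went this way. The 108 Bmp4-positive colon SMCs had Adamdec1 at a log2 ratio of -0.18 (-0.48 to 0.13) and Acta2 at 0.094, but Sox6 at 3.21 (0.69 to 8.53). That Sox6 value set 86 UMIs against 1 UMI in only 17 negative cells. The 95 Bmp2-positive small intestinal SMCs had Adamdec1 at -0.12 (-0.16 to -0.075) and Sox6 at 2.42. Foxl1, another SEMF marker, was at -0.0052 in Bmp5-positive colon SMCs, on 22 and 7 UMIs. Its interval (-1.28 to 1.47) allowed a 2-fold difference either way. Adamdec1 was itself higher in small intestinal SMCs than in CD81- FBs there (9211 against 8191 CPM). The part of fibroblast transcripts in the SMC levels was not tested.

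The endothelial types had 6 called ratios, all higher in the colon. In LECs these were Bmp2 (1.81), Bmp3 (2.86), Bmp4 (3.07) and Bmp5 (2.65), where 3.45% of genes were called higher in the colon. In BECs they were Bmp4 (2.33) and Bmp5 (4.61), where 3.1% were. The levels behind them were low: Bmp4 was 96.7 CPM in colon LECs and 11.5 CPM in small intestinal LECs, and 145 and 28.7 CPM in BECs. Bmp2 in colon LECs came from 18 UMIs in 6 cells, 12 of them in a single cell. Counts were under 100 UMIs over both libraries for Bmp2 and Bmp3 in LECs and for Bmp5 in BECs.

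Fibroblast transcripts moved with the endothelial ligand values. Each ligand in colon LECs stood at 14.6% to 18.7% of its level in the pooled colon fibroblasts, while Dcn (decorin) stood at 9.59% and Pdgfra at 11.98%. For small intestinal LECs the ligands were at 2.81% to 7.18% and Dcn at 2.55%. Endothelial cells were also split by Bmp4 without thinning, so depth was not matched. The 27 Bmp4-positive colon LECs had 3682 CPM of Dcn against 185 CPM in the 190 negative LECs, Bmp5 at 283 against 18.5 CPM, and Lyve1, a lymphatic receptor, at 2248 against 3745 CPM. The 76 Bmp4-positive LECs of the small intestine had 7019 CPM of Dcn against 101 CPM in 2422 negative LECs. In colon BECs, 6 positive cells had 6485 CPM of Dcn against 113 CPM in 47. After the 6% of cells with the highest doublet scores were left out, the Bmp4 ratio in LECs fell from 3.07 to 0.30, that of Bmp5 was 1.70, that of Bmp2 was -1.84, and the Bmp4 ratio in BECs was 1.41.

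Of the small intestinal BECs 10.7% had a Bmp4 UMI, but at most 4 in a cell. Their 56 Bmp4-positive cells had 356 CPM of Dcn against 161 CPM in 468 negative cells. Col1a1, a collagen gene, was at 153 against 26.7 CPM (log2 ratio 2.52, 1.92 to 3.12). It rested on 49 and 50 UMIs, and a single BEC held 30 of these 99. Pdgfra (0.85, -1.23 to 2.54) and Bmp5 (0.55, -5.07 to 3.88) were within counting error, on 4 against 13 UMIs and 1 against 4. Of the endothelial genes, Kdr was at 272 against 469.6 CPM, Pecam1, a general endothelial gene, at 1152 against 1016 CPM and Ackr1, a venular gene, at 681 against 481 CPM. Bmp4 stood at 7.68% of the fibroblast level there, Dcn at 1.15% and Bmp5 at 0.685%.

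In the 3 fibroblast types pooled, none of the 5 ligands reached 2-fold, where 16.4% of genes were called in either direction. Bmp4 was nearest at 0.82 (663 against 374 CPM), and its ratio was at least 0.67 in SEMFs and CD81- FBs alike. Bmp2 at 111 and 122 CPM looked level in the pool, although its ratios in SEMFs and CD81- FBs differed in sign. Giving the 3 types equal weight moved the pooled Bmp2 ratio from -0.14 to 0.37, that of Bmp3 from 0.14 to -0.17, that of Bmp5 from 0.32 to -0.20 and that of Bmp7 from 0.093 to -0.52.

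Detection of several ligands in 1 cell was counted after thinning each cell to 2000 UMIs. SEMFs carried at least 3 of the 5 ligands in 57.0% of cells in the colon (54.0% to 60.0%) and 50.8% in the small intestine (47.8% to 53.8%). The corresponding shares were 4.83% and 4.44% of CD81- FBs, 2.44% and 1.10% of SMCs, 0.461% and 0.0426% of LECs, and 0.117% of colon Trophocytes. The mean number of ligands per SEMF was 2.66 and 2.56. Without thinning, all 5 ligands were seen together in 295 colon SEMFs (26.7%) and 292 small intestinal SEMFs (26.3%).

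**Figure D3:**
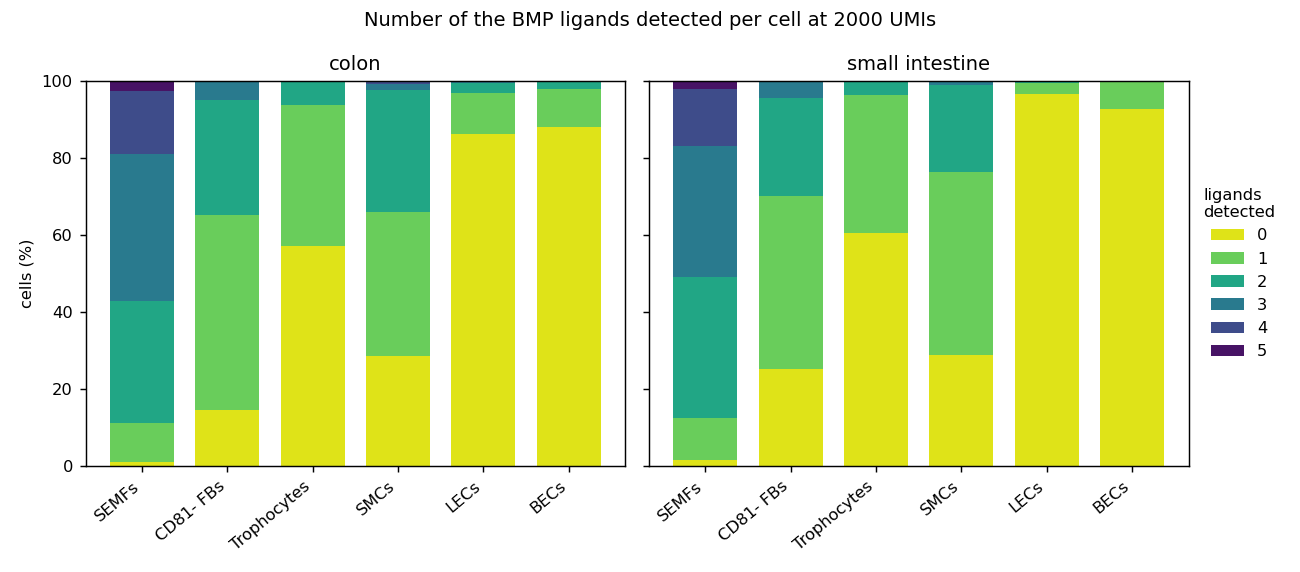
Share of cells (%) in which 0 to 5 of the BMP ligands were detected after thinning each cell to 2000 UMIs, by annotated type, in colon (left) and small intestine (right). At least 3 ligands were detected in 57.0% and 50.8% of SEMFs, and no ligand in 14.7% and 25.1% of CD81- FBs.

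The commonest combination in SEMFs was Bmp4 with Bmp5 and no other ligand, in 17.2% of colon and 18.4% of small intestinal SEMFs. The next was Bmp2 with Bmp4 and Bmp5 in the colon (13.0%) and Bmp4 with Bmp5 and Bmp7 in the small intestine (10.7%). CD81- FBs most often showed Bmp4 alone, in 40.1% of colon and 28.9% of small intestinal cells. Bmp4 with Bmp5 came next among the positive cells, in 22.9% and 11.8%. Bmp2 with Bmp4 was found in 3.75% of colon and 9.93% of small intestinal CD81- FBs, and Bmp2 alone in 8.74% of the latter.

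The number of SEMFs with both ligands of a pair was set over the number given by the product of the 2 shares. The interval of this ratio included equality for 9 of the 10 pairs in the colon and all 10 in the small intestine. The exception was Bmp2 with Bmp3 in the colon: 118 SEMFs had both, against 140 expected, a ratio of 0.842 (0.703 to 0.997). Bmp3 was found in 26.6% of Bmp2-positive and 35.0% of Bmp2-negative colon SEMFs. Without thinning the ratio was 0.968 (0.897 to 1.04), and in small intestinal SEMFs the thinned ratio was 1.09 (0.887 to 1.32). For ligands found in most SEMFs such a ratio can hardly leave equality, so independence was not shown. In small intestinal SEMFs, Bmp7 was found in 43.0% of Bmp5-positive (39.9% to 46.2%) and 56.1% of Bmp5-negative cells (46.1% to 65.7%). In colon SEMFs, Bmp7 was found in 32.0% of Bmp4-positive (28.8% to 35.3%) and 24.9% of Bmp4-negative cells (19.8% to 30.6%). Colon CD81- FBs had Bmp5 and Bmp7 together more often than the product, at 1.32 (1.06 to 1.62), and at 1.14 (1.04 to 1.25) without thinning.

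Other marker and pathway genes were then compared between SEMFs with and without each ligand at 2000 UMIs, using all their UMIs. The 444 Bmp2-positive colon SEMFs had 507 CPM of Nrg1, a ligand of the ERBB receptors, against 157 CPM in the 652 negative ones (log2 ratio 1.69). Dll1, a Notch ligand, was higher as well (1.46), as was Fst, which encodes the activin and BMP antagonist follistatin (0.91). Lower in them were Chrd (chordin, a BMP antagonist, -1.17), Hhip (-1.13) and the contractile gene Tagln (-0.64). The targets Id1 (709 against 416 CPM) and Id3 (1518 against 985 CPM) were also higher, and Pdgfra was level (-0.024).

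Bmp3-positive colon SEMFs (346 against 750 negative) showed the opposite pattern. Nrg1 was at 104 against 399 CPM (-1.94), Dll1 at -2.27 and Fst at -2.60, while Chrd (1.13), Tagln (0.93) and Rgma, a BMP co-receptor (0.89), were higher. Id1 was at -1.01 and Id3 at -0.94, Acta2 at 0.67 and Pdgfra at 0.11. Bmp2 itself was at 291 CPM in Bmp3-positive and 420.0 CPM in Bmp3-negative cells. Nrg1, Dll1, Fst, Chrd and Tagln had been picked for their large colon ratios, a choice that favours smaller values in another library. Small intestinal SEMFs gave much flatter values. There, Bmp2-positive cells had Nrg1 at 72.9 against 64.6 CPM, Chrd at -0.074, Tagln at -0.14 and Id1 at -0.038, and Bmp3-positive cells had Nrg1 at -0.14, Chrd at 0.0048, Tagln at -0.076 and Id1 at -0.049. The difference between the tissues was not tested.

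**Figure D4:**
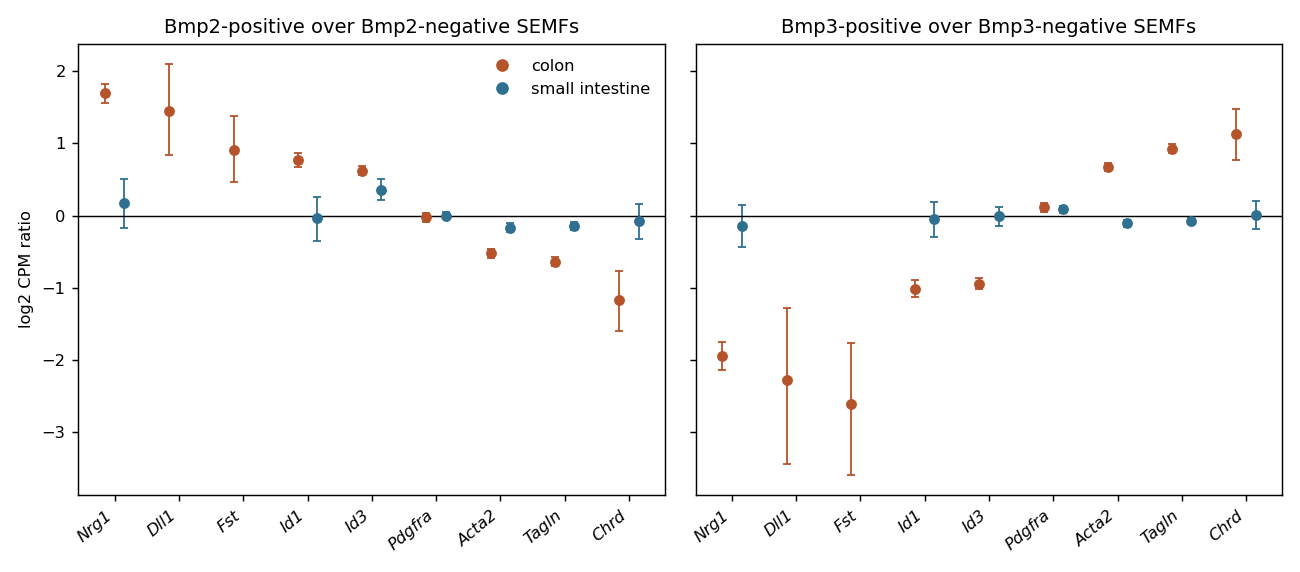
Log2 ratio of summed CPM between SEMFs positive and negative for Bmp2 (left) or Bmp3 (right) at 2000 UMIs per cell, for 9 partner genes, in colon and small intestine, with exact 95% counting intervals. A gene under 100 UMIs in a library has no point. In the colon Nrg1 lies at 1.69 for Bmp2 and -1.94 for Bmp3, and Tagln at -0.64 and 0.93, whereas all small intestinal points lie within 0.36 of 0.

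Among small intestinal SEMFs the largest ratios in Bmp2-positive cells were those of Des (0.40, -0.21 to 0.97), Cspg4 (0.38, 0.12 to 0.64) and Inhba (0.38, 0.038 to 0.70). The interval of Des included 0, and Id3 at 0.36 lay within counting error of all 3. The lowest were the plasma cell transcripts Igkc (46.5 against 435 CPM) and Jchain and the lymphatic chemokine Ccl21a. Bmp5-negative SEMFs were few. In the colon, 134 of them had more Hhip (50.8 against 8.75 CPM) and less Nrg1 (163 against 325 CPM) than the 962 positive ones, and in the small intestine 107 of them had more Fbln1 (201 against 52.1 CPM) and Igkc (3084 against 47.6 CPM). Bmp7-positive colon SEMFs had more Nrg1 (0.39) and Inhba (0.36).

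The same comparison within CD81- FBs was added after the data were seen. The 180 Bmp7-positive colon cells had Nrg1 at 119 against 41.0 CPM (1.54), Cd36 at 1.30, Sox6, a SEMF marker, at 1.05 and Id1 at 1.01, with Hhip at -2.15 and the antagonist Grem1 at -1.02. Bmp5-positive CD81- FBs had more Nrg1 in both tissues, 69.2 against 29.9 CPM (colon) and 129.8 against 41.9 CPM (small intestine). The latter also had Cxcl14, another SEMF marker, at 180.2 against 66.1 CPM. Bmp2-positive cells split by tissue: Nrg1 was at 0.98 in the colon, but at -1.37 in the 721 Bmp2-positive CD81- FBs of the small intestine, together with Cxcl14 at -1.40, Acta2 at -1.14 and Id1 at -0.92.

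Correlated over the 12 sums of 6 types in 2 libraries, on log2(CPM + 10), the ligands most alike were Bmp3 and Bmp7 (r = 0.95) and the least alike Bmp3 and Bmp4 (r = 0.46). The sums of a tissue share a library, so these values are descriptions. Of 6079 genes, those closest to Bmp2 were Sobp (0.93), H1fx (0.92) and Sestd1 (0.92), and those closest to Bmp4 were Sdk1 (0.98), Aldh2 (0.97) and Dkk3 (0.97). For Bmp3 they were Gm45025 (0.99), Ccn4 (0.98) and Wif1 (0.98), the last 2 a matricellular protein and a Wnt inhibitor. Syt13 (0.97), Psma4 (0.95) and Fhl2 (0.94) were closest to Bmp5, and Bean1, Bpgm and Sqle (all 0.96) to Bmp7.

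The wider pathway was described in the pooled fibroblasts from lists of other ligands, processing enzymes, antagonists, receptors, transducers and targets. At least 100 UMIs were reached by 9 other ligands, 5 processing enzymes, 10 antagonists, 11 receptors, 8 transducers and 9 targets. Of these genes, 9 were called higher in the colon and 10 higher in the small intestine, where 6.88% and 9.47% of all genes were. Smad6 and Smad7 stood in 2 lists and were counted once in these totals.

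**Figure D5:**
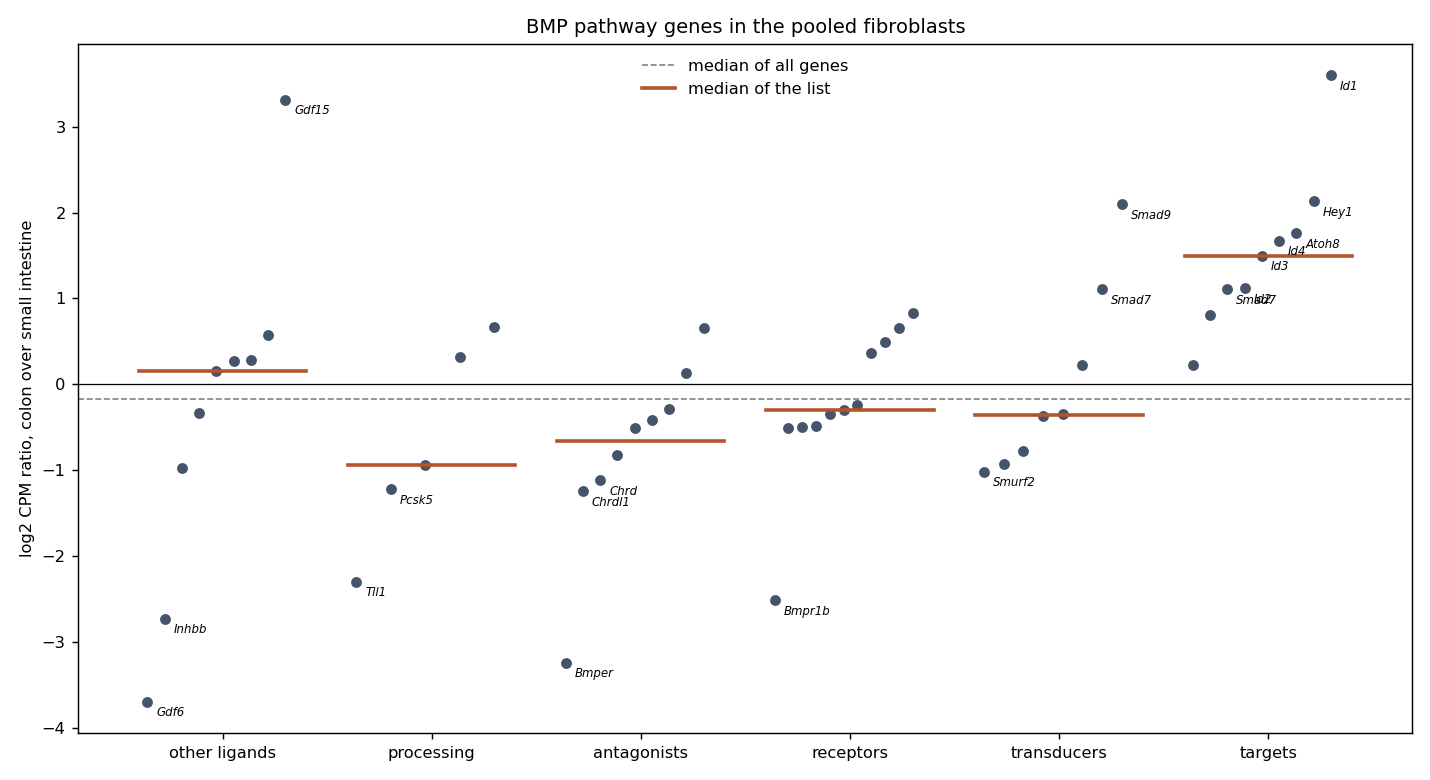
Log2 ratio of CPM, colon over small intestine, for BMP pathway genes with at least 100 UMIs in the pooled fibroblasts, by list; each point is a gene (1 antagonist is not shown), the called genes shown are named, solid bars are list medians and the dashed line is the median of all genes (-0.17). Targets had a median of 1.50 and no member called lower in the colon, and antagonists a median of -0.66.

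Target genes were higher in the colon for 7 of 9, with a median log2 ratio of 1.50 beside -0.17 for all genes. Id1, an inhibitor of bHLH factors induced by BMP signalling, was at 225 and 18.6 CPM in colon and small intestine (3.60), Id3 at 824 and 292 CPM (1.50), Id4 at 24.5 and 7.67 CPM (1.67) and Id2 at 95.5 and 43.9 CPM (1.12). In SEMFs 3 of 5 targets were called higher in the colon, beside 5.36% of all genes: Id1 was at 540.0 and 90.6 CPM and Id3 at 1210.2 and 329 CPM. CD81- FBs had 7 of 8 called higher in the colon, beside 6.46% of all genes, a type in which Bmp2 was lower and Bmp7 higher there.

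In the pooled fibroblasts antagonists lay the other way, with a median of -0.66. Of 10, 4 were called higher in the small intestine and none in the colon, beside 9.47% and 6.88% of all genes. Bmper (2.34 and 22.1 CPM) and Chrd (22.3 and 48.2 CPM) were among the 4. Grem1, at 311 and 550.4 CPM, was not, and its highest level was in Trophocytes, 573 CPM for colon and 1298 CPM for small intestinal cells. CD81- FBs had the reverse order for Grem1, with 336 CPM (colon) against 168 CPM (small intestine). Higher in the small intestine were 2 of 8 antagonists in CD81- FBs (10.4% of all genes) and 4 of 10 in Trophocytes (8.24%). None was called higher in the colon in these types. SEMFs differed, with 2 of 6 antagonists called higher in the colon (5.36% of all genes) and 1 in the small intestine (15.1%). Their median was -0.030 beside -0.33 for all genes. In SEMFs, Chrd was at 35.9 and 141 CPM (-1.97), Twsg1 at 455 and 195 CPM (1.22), and Nbl1 had the highest level of the list at 1466 and 1923 CPM.

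Receptors had 1 of 11 called, Bmpr1b, a type I receptor, at 5.87 and 33.5 CPM (-2.51), and a median of -0.30. Rgmb (0.83), Acvrl1 (0.65) and Bmpr2 (-0.48), the type II receptor with the highest SEMF level of the list, stayed under 2-fold. The SEMF ratios of Eng and Rgma, both co-receptors, were -1.38 and -1.61. Of 8 transducers, the inhibitory Smad7 (91.1 and 42.3 CPM) and the receptor-regulated Smad9 (12.6 and 2.95 CPM) were called higher in the colon, and Smurf2, a ubiquitin ligase acting on SMADs, was called higher in the small intestine (74.0 and 149 CPM). Smad1 was at -0.92, and Smad7 in SEMFs was at 87.0 and 16.7 CPM.

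Of the other ligands, 1 of 9 was called higher in the colon, Gdf15 (28.1 and 2.83 CPM), and 2 in the small intestine, Gdf6 (1.69 and 21.8 CPM) and the activin subunit gene Inhbb (2.60 and 17.2 CPM, with 11.4 and 105 CPM in SEMFs). Bmp1, a procollagen protease despite its name, was at -0.97. Bmp6, of the branch of Bmp5 and Bmp7, was at 192 and 157 CPM in the pool and at 155 and 246 CPM in SEMFs. Among processing enzymes, Pcsk5 (388 and 904 CPM) and Tll1 (0.415 and 2.04 CPM), 2 of 5, were called higher in the small intestine. Pcsk6, a proprotein convertase like Pcsk5, had the highest SEMF level of the list, 355 and 431 CPM, Furin was at 0.32, and Tll2 in SEMFs was at -1.66.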

How the data were processed

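The deposited values were used as the authors made them: raw UMI counts per gene and cell, natural log values that equalled the log of 1 plus UMIs times 10000 over the cell's UMIs, and cell type labels. Cell Ranger 7.1.0, Seurat 4 and mm10 are named in the submitters' processing notes, without roles, and filters and the naming of types are not given in the sources used here. Counts were summed per library and type (at least 50 cells) as CPM, with exact Poisson, Clopper-Pearson and conditional binomial 95% intervals. Library totals were 40684070 UMIs (colon) and 58134526 UMIs (small intestine). Zero counts were bounded by a floor of 3 counts. Genes of the background needed 100 UMIs. Thinning to 2000 UMIs left out 69 colon and 343 small intestinal cells. Scrublet (scanpy 1.11.5) marked 5 colon and 92 small intestinal cells, too few in the colon, so none were removed and the 6% of highest scores were left out as an alternative. Members and lists were chosen with earlier results of these data known. Named genes were up to 4 per list by tissue ratio in pooled fibroblasts (2 in SEMFs), the highest in SEMFs, and 3 per direction or ligand for partners and likeness. The values of 1 antagonist gene are not reported here, although counts and medians of its list include it. Intervals were tested on simulated data. Scripts used Python 3.11.15, numpy 2.4.6, scipy 1.17.1 and pandas 2.3.3.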

Additional observations from a re-analysis of the deposited data

Results flagged for a closer look

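The log2 ratio of Bmp2, colon over small intestine, was called in opposite directions in different types. The ratio in SEMFs exceeded that in CD81- FBs by 3.19, and the ratio in LECs exceeded that in CD81- FBs by 3.61. With 1 library per tissue neither difference was tested, and the LEC value rested on 18 colon UMIs, 12 of them in a single cell.

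Ligand UMIs were also present in types with too few cells to describe above. The 8 colon pericytes held 4 UMIs of Bmp2, 9 of Bmp4 and 10 of Bmp5. The 4 proliferating cells of the colon held 4 UMIs of Bmp2, 11 of Bmp4, 21 of Bmp5 and 6 of Bmp7. The 24 proliferating cells of the small intestine held 39 UMIs of Bmp4 and 14 of Bmp5.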

How the results depend on the processing

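SEMFs stayed the highest type for 5 ligands in the colon and 4 in the small intestine under every alternative that gave a value. The ratio of Bmp2 ranged from 0.79 to 1.73 in SEMFs and from -1.86 to -0.64 in CD81- FBs. With cells thinned to 2000 UMIs, the called ratios fell from 13 to 7, those higher in the colon from 12 to 6, and the pooled Bmp3 and Bmp7 ratios became -0.12 and -0.15. Without the highest doublet scores, Bmp2 became -1.84 in LECs and -0.29 in SMCs. Using only colon cells with Y-linked transcripts, Bmp2 in LECs became -0.26, and using only those with Xist, Bmp2 in Trophocytes became 0.056. Without its richest cell, Bmp2 in LECs became 0.47. With each cell weighted equally, the pooled Bmp3 and Bmp7 ratios were -0.16 and -0.24, and by means of the deposited log values Bmp3 was -0.034. Relative to the median gene, pooled Bmp2 was 0.038 and Bmp3 in SEMFs 0.15. With fibroblast types weighted equally, pooled Bmp2, Bmp3, Bmp5 and Bmp7 were 0.37, -0.17, -0.20 and -0.52, which follows from the mix of types. The cause of the others was not tested. The 1 pair found less often in colon SEMFs went to 0 without thinning, at 4000 UMIs and at a minimum of 2 UMIs, and pairs found more often in small intestinal SEMFs went from 0 to 2 without thinning and to 1 with another random seed. Of the 15 most alike genes, 5 were shared by Spearman correlation and 9 each with a pseudocount of 1 CPM or no CPM minimum. Of 294 alternative values of the ratios, 194 stayed within the counting interval of the main value, 85 did not, and 15 changed the sign of a ratio whose own interval excluded 0; sign changes of ratios within counting error of 0 are counted among the others. No paired analysis was possible because each tissue had 1 library.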
